A study of Rattus norvegicus with 156 samples.

Results

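Whole brain was compared with the spinal cord in rats of a study of neuropathic pain. The comparison takes 10 of the 52 RNA pools of the study: the 5 brain pools and the 5 pools of the hemisected cord contralateral to the nerve injury, paired by treatment. The ipsilateral cord was left out because it carries the response to ligation. Each pool was hybridised to the 3 arrays of the Affymetrix rat U34 set (A, B and C), so that 30 of the 156 arrays enter, and each array carries different probe sets.

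The 5 treatments each gave 1 brain pool and 1 cord pool, made from 4 to 6 rats. Naive rats had no surgery and received saline vehicle. Naive rats with gabapentin (GPN) had no surgery and received 100 mg/kg of this antiepileptic drug intraperitoneally once daily for 7 days. Sham rats had the spinal nerves exposed but not tied, with vehicle. SNL rats had the L5 and L6 spinal nerves ligated, with vehicle, and SNL rats with GPN had the ligation and the drug. Tissue was taken 19 to 21 days after surgery, and ligated rats had been selected for a lowered paw withdrawal threshold. The strain, sex and age of the rats, the cord levels taken, and whether brain and cord of a treatment came from the same animals are not stated in what was used here. The 5 pairs therefore serve as replicates of the tissue difference, and their spread holds the differences between treatments and pools.

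Brain and spinal cord are built from the same broad classes of cell in different proportions. The cord is rich in white matter, in which oligodendrocytes wrap long axons with myelin, a membrane made mostly of lipid and cholesterol. Its grey matter holds motor neurons and receives the central branches of sensory neurons, and the nerve roots at its surface are wrapped by Schwann cells, the myelinating glia of peripheral nerve. The brain holds the cortex, hippocampus, striatum, hypothalamus and cerebellum, each with neuron types that the cord lacks, and the choroid plexus of its ventricles. Hox genes, which encode transcription factors that set position along the body axis, are active in the hindbrain and cord but not in the forebrain.

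Values are MAS5 signals, a linear intensity in arbitrary units, quantile normalized here over the 10 arrays of each set. A difference is brain minus cord on the scale of log2 of signal plus a pseudocount (6.11, 5.29 and 6.95 for arrays A, B and C), with its standard error (SE) from limma over the 5 pairs. Folds taken from it understate the ratio of signals for weak genes. Adjusted p values are Benjamini-Hochberg values over all 16078 probe sets kept, and a call is an adjusted p under 0.05. A gene is represented by its brightest probe set with a single symbol, which gave 8280 genes. Signals per pool are listed with naive first, then naive GPN, sham, SNL and last SNL GPN.

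Before scaling, array medians spanned 13 to 35.7 in set A, 13.1 to 28.3 in set B and 22.9 to 37.1 in set C, and the SNL cord array of set A was the dimmest. Pools of the same tissue correlated at 0.948 to 0.97 in brain and 0.961 to 0.968 in cord, over kept probe sets, and brain with cord pools at 0.875 to 0.895. The 3′ to 5′ signal ratio of the Gapdh control, a measure of RNA integrity, lay between 0.95 and 1.4 in brain and between 1.03 and 1.4 in cord over the 3 array sets, and that of the actin control between 1.55 and 2.47 in brain and between 1.44 and 2.2 in cord. With 5 pools a tissue, pool number sets how precise a value can be.

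The tissue labels were checked against markers. Eno2, the neuronal enolase, had signals of 1613, 1433, 1769, 1769 and 1687 in brain and of 1029, 1167, 1111, 1213 and 1387 in cord. The pools of the tissues did not overlap, and brain was higher by 0.49 (SE 0.08, adjusted p = 0.000856). With the deposited scaling kept, Eno2 differed by 0.34 and was not called (adjusted p = 0.347). Mbp, myelin basic protein, was the brightest probe set on 9 of the 10 arrays of set C, and quantile normalization fixes the value of the brightest probe set. There Mbp read 5622 in all 5 cord pools and in 4 brain pools, with a difference of -0.04 (adjusted p = 0.644). The Mbp probe set of array A was the brightest on 1 array and that of array B on none. On array A, Mbp signals were 4350 ± 593 (SD, n = 5) in brain and 6953 ± 348 in cord, a difference of -0.68 (SE 0.09, adjusted p = 0.000225). On array B they were 212 ± 29.8 and 506 ± 54.0, a difference of -1.24 (SE 0.09, adjusted p = 4.98e-06). Over the mean of its 3 probe sets Mbp differed by -0.66 (adjusted p = 2.8e-05). Mbp and Eno2 were thus bright in both tissues, with Mbp toward cord and Eno2 toward brain.

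The naive brain pool stood apart from the other 4 brain pools. Gh1, pituitary growth hormone, read 1917 in that pool against 9.38 to 26.7 in the others, and Prl, prolactin, read 829 against 1.98 to 13.2. Pomc, the precursor of corticotropin, read 392 against 7.40 to 41.6, and Cga, the shared subunit of the glycoprotein hormones, read 149 against 53.2 to 64.6. Haemoglobin genes were high in the same pool: Hbb read 4254 against 1203 to 1668, and Hba-a1 read 5138 against 1769 to 2595. Hba-a1 was the brightest probe set of set B in that pool, so its value there is fixed by quantile normalization. The red blood cell gene Alas2 was also high there, at 203 against 64.4 to 97.4, whereas Slc4a1 did not follow, at 86.7 against 61.2 to 110.5. Pituitary and haemoglobin signals were thus high in the naive brain pool. The actin control ratio in that pool was 2.34, 2.47 and 1.96 on sets A, B and C, against 1.55 to 1.94 over the other brain pools, and the Gapdh ratio was 1.38, 1.4 and 1.3 against 0.95 to 1.2. Both ratios were highest among brain pools in each set, and their part in the results from this pool was not tested. Gh1 and Prl did not pass the filter on low signal and were not tested. Pomc differed by 1.04 (adjusted p = 0.225) with all pairs and by 0.31 (adjusted p = 0.66) without the naive pair.

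**Figure D1:**
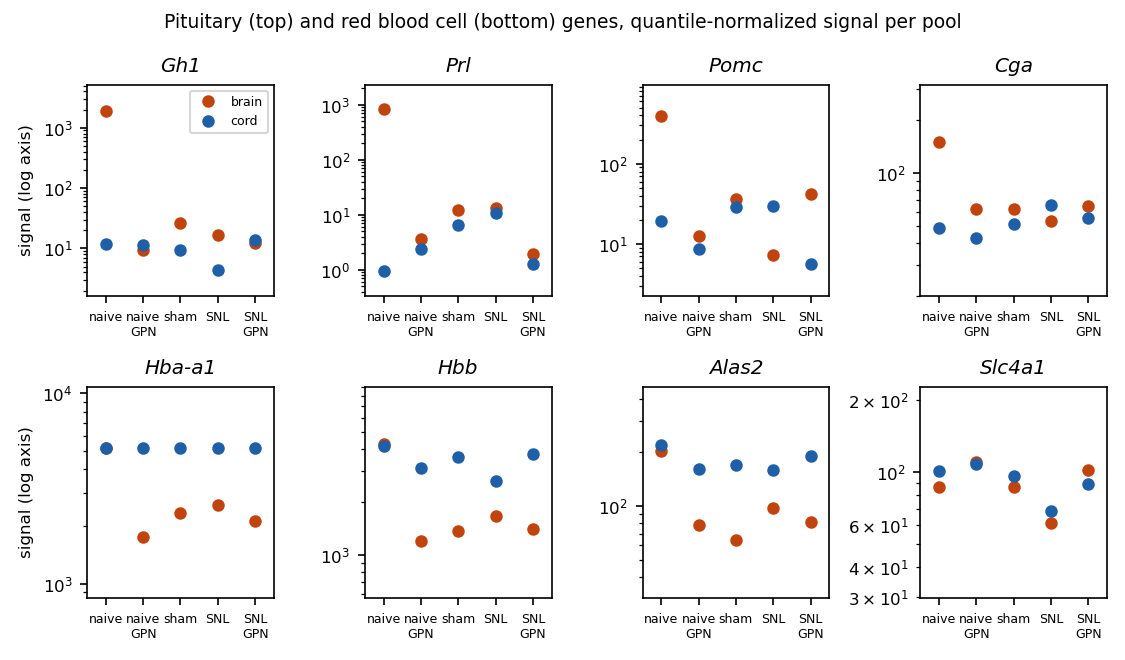
Quantile-normalized signal (log axis) of 4 pituitary genes in the upper row and 4 red blood cell genes in the lower row, with 1 point per pool, brain and contralateral cord, in each of the 5 treatments. The naive brain pool reads 1917 for Gh1 and 829 for Prl, while no other pool of either tissue exceeds 26.7 and 13.2. Its haemoglobin and Alas2 values lie with those of the cord, where that of Hba-a1 is fixed by quantile normalization. Its Slc4a1 value does not stand apart.

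Of 16078 probe sets tested, 5416 (33.7%) were called, 2617 higher in brain and 2799 higher in cord. With the deposited scaling in place of quantile normalization, 2699 were called, 1375 higher in brain and 1324 in cord. By gene, 1320 of 8280 (15.9%) were higher in brain and 1588 (19.2%) higher in cord, and the median difference over all genes was -0.01. A difference of at least 2-fold was called for 251 genes (3.03%) in brain and for 311 genes (3.76%) in cord. In 2735 of the 2908 genes called, all 5 pairs had the same sign, which the call itself favours because it rests on the same differences. The shares over all 8280 genes are the background for the counts of the gene groups, which are over tested members. A gene weak in 1 tissue could pass the filter on low signal through the other, so a count over members that passed is a description. Of 319 listed or leading genes that were called, 210 kept the call and the direction under each processing alternative that gave them a value, 106 lost the call in at least 1 of them and 3 changed sign. The mean over all probe sets of a gene gave a value for 152 of the 319, the 60th percentile filter for 283, the comparison with ipsilateral cord for 317, and the other alternatives for all 319. Each pool is a mixture of cells, so fewer cells of a type and less RNA per cell cannot be told apart.

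The 10 genes with the largest differences toward brain among those with all 5 pairs of the same sign belonged to the choroid plexus, to forebrain neurons and to the cerebellum, by their known sites of expression. Ttr, transthyretin, the thyroid hormone carrier secreted by the choroid plexus, read 1999, 2096, 2211, 2012 and 2012 in brain and 30, 41.2, 39.7, 31.5 and 27.4 in cord. It had the largest difference of all genes, 5.70 (SE 0.08, adjusted p = 2.1e-10). Arpp21, a phosphoprotein of striatal and cortical neurons that answers to cyclic AMP, read 556, 497, 478, 565 and 497 in brain and 20.6, 12.5, 8.12, 22.2 and 18.2 in cord. Its difference was 4.65 (SE 0.12, adjusted p = 1.6e-08), and 5 of its 5 probe sets were called in that direction. In both genes every brain pool lay far above every cord pool.

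Nrgn, neurogranin, a calmodulin-binding protein of dendritic spines, averaged 1266 ± 79.1 (SD, n = 5) in brain and 58.4 ± 4.75 in cord, a difference of 4.30 (SE 0.08, adjusted p = 3.12e-09). Itpka, an inositol trisphosphate kinase of spines, averaged 165 ± 16.8 and 2.85 ± 0.713, a difference of 4.25 (SE 0.13, adjusted p = 3.43e-08). Neurod1, a transcription factor retained in cerebellar and hippocampal granule neurons, read 137, 164, 173, 151 and 218 in brain and 8.59, 10.4, 4.81, 1.87 and 3.25 in cord. Its brain pools varied less than 2-fold, and its cord signals lay near the pseudocount, so the difference of 3.91 (SE 0.19, adjusted p = 5.17e-07) understates the ratio. Rasgrp1, an exchange factor for Ras, differed by 3.55 (SE 0.15), and Crym, a thyroid hormone-binding crystallin of cortex and striatum, by 3.50 (SE 0.14).

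The other 3 leading genes mark the cerebellum. Car8, an inactive carbonic anhydrase relative of Purkinje cells, averaged 356 ± 10.2 in brain and 22.8 ± 2.72 in cord, a difference of 3.61 (SE 0.09, adjusted p = 1.12e-08). Itpr1, the calcium release channel that Car8 binds, averaged 518 ± 32.2 and 42.4 ± 4.39, a difference of 3.43 (SE 0.09, adjusted p = 1.19e-08). Gabra6, the GABA-A receptor subunit of cerebellar granule cells, read 173, 290, 249, 302 and 332 in brain and 15.8, 16.4, 22.4, 24.9 and 19.5 in cord. It differed by 3.39 (SE 0.12, adjusted p = 1.04e-07), with the naive pool the lowest brain value.

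The 10 leading genes on the cord side were of another kind. Prx, periaxin, a scaffold of Schwann cell myelin, read 20.8, 8.30, 31.8, 23.2 and 21.5 in brain and 823, 782, 644, 893 and 689 in cord. Its difference of -4.88 (SE 0.19, adjusted p = 1.41e-07) was the largest toward cord on the log2 scale, where the pseudocount understates genes with a low signal in brain. Pmp22, peripheral myelin protein 22, read 183, 170, 132, 119 and 145 in brain and 4254, 4432, 3675, 4752 and 4432 in cord, a difference of -4.80 (SE 0.10, adjusted p = 4.95e-09). Both genes encode parts of peripheral nerve myelin, and every cord pool lay above every brain pool in both.

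Myoc, myocilin, a secreted glycoprotein found in peripheral nerve and in the eye, averaged 7.73 ± 4.89 in brain and 310 ± 36.0 in cord, a difference of -4.58 (SE 0.17, adjusted p = 1.12e-07). Chodl, chondrolectin, a membrane lectin of fast motor neurons, averaged 13.2 ± 3.21 and 271 ± 51.7, a difference of -3.90 (SE 0.09, adjusted p = 1.12e-08). Hoxb6 read 2.92, 2.21, 2.30, 1.51 and 2.86 in brain and 98.5, 82.9, 120, 96.3 and 103 in cord, a difference of -3.78 (SE 0.14, adjusted p = 1.27e-07). Calca, which encodes the peptide CGRP of sensory and motor neurons, read 6.06, 5.79, 2.23, 11.2 and 6.33 in brain and 132, 139, 138, 82.4 and 128 in cord. Its difference was -3.40 (SE 0.22, adjusted p = 2.38e-06), and the SNL pool held the lowest cord value. Sncg, a synuclein of sensory and motor neurons, differed by -3.28 (SE 0.31) and had 1 low brain pool, naive with GPN, at 11.6 against 58.1 to 93.8 in the others. Lgals1, a galectin of neurons and Schwann cells, differed by -3.27 (SE 0.13), Col2a1, a collagen of cartilage, by -3.23 (SE 0.13), and Sfrp5, a secreted inhibitor of Wnt signals, by -3.02 (SE 0.13). In each of these 20 genes the brain and cord pools did not overlap, as held for 24.9% of all probe sets tested. The genes were chosen from the same pools by the size and shared sign of the difference, so their separation is a description.

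**Figure D2:**
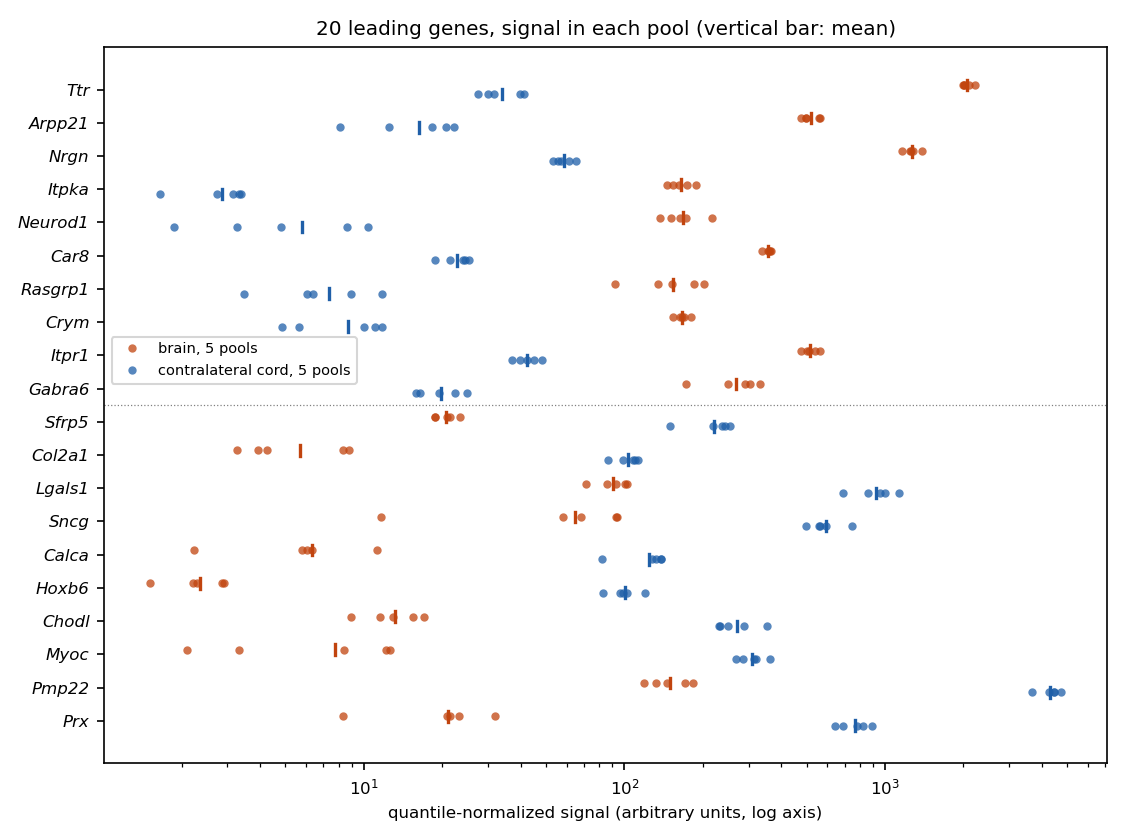
Signal in each of the 5 brain and 5 contralateral cord pools (points; vertical bars are means) on a log axis, for the 10 genes with the largest difference in each direction. Brain and cord pools are separate for each of the 20 genes, from Ttr at 2066 against 34.0 to Prx at 21.1 against 766.

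The promoters of 2 leading genes of each side are shown because these genes move together by tissue: Neurod1 and Gabra6 for brain, Prx and Myoc for cord. The sequences are the 250 bases before the RefSeq gene start on GRCr8, 5′ to 3′ on the strand of the gene. They lie at chr3:84770455-84770704 on the minus strand (Neurod1), chr10:27327235-27327484 on the minus strand (Gabra6), chr1:91914171-91914420 on the plus strand (Prx) and chr13:77509713-77509962 on the plus strand (Myoc). Capitals mark matches, on either strand, to the TATA box (TATAAA), the CCAAT box (CCAAT) and the GC box (GGGCGG).
Neurod1: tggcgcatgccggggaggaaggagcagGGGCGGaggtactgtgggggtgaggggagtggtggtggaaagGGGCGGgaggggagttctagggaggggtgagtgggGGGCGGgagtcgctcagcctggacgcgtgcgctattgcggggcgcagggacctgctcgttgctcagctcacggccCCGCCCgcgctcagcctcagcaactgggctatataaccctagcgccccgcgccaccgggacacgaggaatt
Gabra6: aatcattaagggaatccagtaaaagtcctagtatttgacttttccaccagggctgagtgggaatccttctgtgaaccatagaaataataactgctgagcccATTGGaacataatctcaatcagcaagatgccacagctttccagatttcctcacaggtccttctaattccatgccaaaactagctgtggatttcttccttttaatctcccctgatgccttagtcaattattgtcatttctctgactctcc
Prx: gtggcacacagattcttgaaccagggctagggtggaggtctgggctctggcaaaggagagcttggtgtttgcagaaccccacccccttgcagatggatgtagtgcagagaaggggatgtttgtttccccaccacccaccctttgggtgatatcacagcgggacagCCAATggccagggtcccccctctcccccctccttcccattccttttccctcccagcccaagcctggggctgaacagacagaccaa
Myoc: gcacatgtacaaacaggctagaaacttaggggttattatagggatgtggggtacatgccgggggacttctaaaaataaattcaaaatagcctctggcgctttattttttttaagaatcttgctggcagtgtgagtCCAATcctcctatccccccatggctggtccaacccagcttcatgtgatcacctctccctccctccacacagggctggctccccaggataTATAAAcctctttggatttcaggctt
The Neurod1 window holds 4 GC boxes and 21 CpG dinucleotides at 69.2% GC, whereas that of Gabra6 holds 1 CCAAT box and 0 CpG at 41.2% GC. Prx has 1 CCAAT box and 1 CpG at 58.8% GC. Myoc has 1 CCAAT box, 2 CpG and a TATA box that begins 26 bases before the start. Promoters were matched for 7 of the 10 leading genes of each side. The TATA box was found in 0 of 7 brain-side and 1 of 7 cord-side windows, against 12.9% of all 33469 windows. The CCAAT box was found in 2 and 4, against 34.0%, and the GC box in 3 and 1, against 30.5%. With 7 windows a side these counts are a description only, and a match is not evidence of binding.

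Genes of the oligodendrocyte and myelin list were higher in cord almost throughout. Of 26 tested members of the list, 22 were called higher in cord and 1 higher in brain, with a median of -1.24 against -0.01 over all genes, and 16 passed 2-fold in cord. Ugt8, which makes the galactolipid of myelin, read 330, 365, 417, 320 and 364 in brain and 1463, 1488, 1353, 1443 and 1503 in cord, a difference of -2.0 (SE 0.08, adjusted p = 1.42e-07). Its cord pools lay about 4-fold above its brain pools with little spread in either. Cryab, a small heat shock protein of oligodendrocytes, differed by -2.18 (SE 0.09), Apod, a lipid carrier of myelinating glia, by -2.02 (SE 0.08) and Plekhb1 by -1.90 (SE 0.08).

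Structural proteins of central myelin differed less than Ugt8, Cryab, Apod and Plekhb1, which were named because their differences were the largest of the list. Mog averaged 237 ± 28.8 in brain and 643 ± 35.2 in cord, a difference of -1.43 (SE 0.07). Cnp, a membrane-bound phosphodiesterase of myelin, averaged 458 ± 26.2 and 1114 ± 30.6, a difference of -1.27 (SE 0.06). Mag differed by -1.08 (SE 0.11) and Mobp by -0.94 (SE 0.07), and the transcription factors Sox10 and Myrf by -1.21 and -0.80. Olig2, a factor of the whole lineage, gave -0.21 (adjusted p = 0.306) and Omg -0.03 (adjusted p = 0.79). Car2, the carbonic anhydrase of oligodendrocytes, was the single member higher in brain, by 0.76 (SE 0.08, adjusted p = 6.88e-05), at 401 ± 41.9 against 233 ± 13.9.

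Genes of cholesterol synthesis, which supplies much of the myelin membrane, followed the same direction. Of 19 tested, 18 were called higher in cord and 0 in brain, with a median of -0.91, and 9 passed 2-fold. Idi1, the isomerase that makes the isoprene units of sterols, read 97.1, 87.9, 83.7, 56.9 and 52.2 in brain and 326, 324, 316, 241 and 209 in cord. It differed by -1.84 (SE 0.07, adjusted p = 1.61e-07), and its 2 ligated pools were the lowest of the 5 in each tissue. Tm7sf2 differed by -1.71 (SE 0.10), Cyp51 by -1.56 (SE 0.07), Lss by -1.5 (SE 0.10) and Sqle, which adds oxygen to squalene, by -1.43 (SE 0.08). The order of pools in Idi1 was not shared by Tm7sf2, whose 2 ligated cord pools were the highest of the 5, at 192 and 198. Srebf2, which encodes the factor that switches these enzymes on, was at 242 ± 17.8 in brain and 227 ± 17.3 in cord, a difference of 0.09 (SE 0.08, adjusted p = 0.418). A sterol regulatory element (TCACNCCAC, both strands) was found in 0 of the 17 promoters matched for this list, against 0.974% of all windows. With so low a share over all windows, 17 promoters are too few for this count to tell whether the list differs. A missing match to this 1 sequence does not show that the element is absent.

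**Figure D3:**
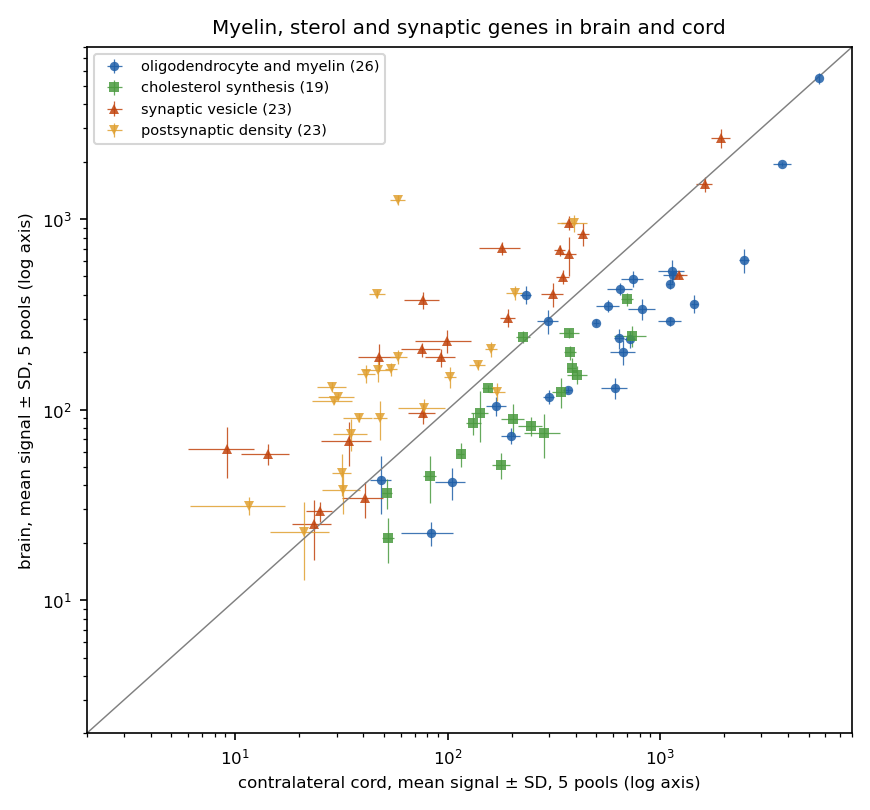
Mean signal in brain against mean signal in contralateral cord (log axes, bars are SD over 5 pools, the line marks equal signal) for the tested members of 4 gene lists. Most myelin and cholesterol genes lie below the line, as Ugt8 at 359 against 1450, and most synaptic genes lie above it, as Nrgn at 1266 against 58.4.

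Genes of Schwann cells and of nerve root tissue were measured beside these. Of 4 tested Schwann cell genes, 3 were called higher in cord and 0 in brain: Prx and Pmp22 as given, and Egr2, the factor that drives peripheral myelination, by -0.87 (SE 0.15, adjusted p = 0.00165). Ngfr, a neurotrophin receptor, gave 0.13 (adjusted p = 0.211) by its brightest probe set, and 1 of its 2 probe sets was called for cord. Fibroblast and meningeal genes were called higher in cord for 9 of 12 tested and in brain for 0, with a median of -1.23. Dcn, the proteoglycan decorin, read 63.8, 45.1, 54.9, 40.1 and 45.8 in brain and 526, 475, 283, 412 and 392 in cord, a difference of -2.90 (SE 0.13, adjusted p = 3.38e-07), with 5 of 5 probe sets called for cord. Fibrillar collagens Col3a1 and Col1a1 differed by -2.12 (SE 0.10) and -2.08 (SE 0.08), and Mgp, an inhibitor of calcification, by -1.77 (SE 0.12). Ptgds, which is also made by meninges, gave 0.21 (adjusted p = 0.079).

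The same genes were read in contralateral sciatic nerve and L4 dorsal root ganglion of the 3 treatments without ligation, as deposited signal over the median of its array, a scale on which 1 is the median probe set. Prx was at 151 ± 26.9 (SD, n = 3) in nerve, 49.6 ± 19.3 in ganglion, 26.9 ± 2.46 in cord and 0.693 ± 0.398 in brain. Pmp22 was at 331 ± 36.2, 215 ± 35.4, 142 ± 3.01 and 5.53 ± 1.32 in the same order, and Myoc at 52.6 ± 3.96, 17.8 ± 4.42, 11.1 ± 0.175 and 0.277 ± 0.168. Dcn was at 183 ± 50.9 in nerve and 15.1 ± 4.02 in cord, and Sfrp5 at 49.4 ± 10.1 and 6.84 ± 1.34. For each of these 5 genes the nerve pools were the highest and the brain pools the lowest. Mbp, by its array C probe set, was at 232 ± 29.1 in nerve and 205 ± 22.3 in cord, with pools that overlapped. It was at 172 ± 23 in brain and 131 ± 22.5 in ganglion. The share of the cord signal that came from nerve roots or meninges was not tested, for these genes or for the myelin list.

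**Figure D4:**
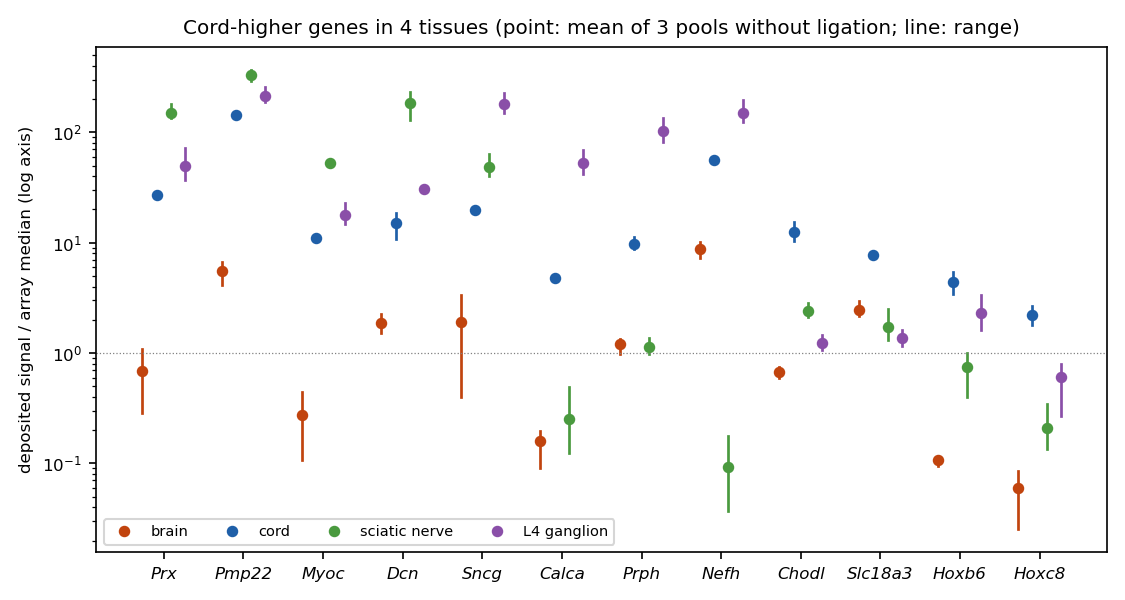
Deposited signal over the array median (log axis) of 12 genes higher in cord, in brain, contralateral cord, contralateral sciatic nerve and contralateral L4 ganglion; points are means and lines the range of 3 pools without ligation. Prx, Pmp22, Myoc and Dcn are highest in nerve, Sncg, Calca, Prph and Nefh highest in ganglion, and Chodl, Slc18a3, Hoxb6 and Hoxc8 highest in cord.

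The neurofilament chains and peripherin were higher in cord. Neurofilaments are the polymers that fill large axons and set their calibre. Nefh, the heavy chain, read 267, 266, 247, 294 and 254 in brain and 1521, 1586, 1601, 1550 and 1473 in cord, a difference of -2.51 (SE 0.06, adjusted p = 1.19e-08). Nefm, the medium chain, averaged 524 ± 15.9 and 2199 ± 228, a difference of -2.05 (SE 0.07), and Nefl, the light chain, 699 ± 86.1 and 2093 ± 129, a difference of -1.58 (SE 0.07). The difference was thus largest for the heavy chain and smallest for the light chain. Prph, peripherin, an intermediate filament of neurons with axons outside the central nervous system, differed by -2.83 (SE 0.14, adjusted p = 4.4e-07). Ina, internexin, which forms filaments in central neurons, gave 0.06 (adjusted p = 0.754). Of 19 tested genes of this list, 8 were called higher in cord, 3 in brain and 8 in neither, with a median of -0.19. Those in brain were the motor subunits Kif5a, Kif5c and Dync1i1, by 0.79, 0.47 and 0.45.

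Motor neuron genes were called higher in cord for 6 of 6 tested, with a median of -2.77. Besides Chodl, Calca and Prph, these were Spp1, osteopontin, by -2.71 (SE 0.08), Slc18a3, the vesicular acetylcholine transporter, by -1.58 (SE 0.12) and Ache, acetylcholinesterase, by -0.40 (SE 0.11, adjusted p = 0.0197). Slc18a3 read 62.5, 65.0, 92.0, 87.7 and 66.6 in brain and 212, 228, 205, 242 and 287 in cord. Chat, the enzyme that makes acetylcholine, was near background in both, at 11.5 ± 5.52 and 11.4 ± 6.04, and was not tested. On the scale of the array median, Slc18a3 was at 7.70 ± 0.187 in cord, 1.73 ± 0.692 in nerve and 1.38 ± 0.226 in ganglion, and Chodl at 12.4 ± 2.77, 2.38 ± 0.378 and 1.22 ± 0.205. These 2 genes were thus highest in cord, unlike Spp1, at 18.8 ± 2.15 in cord, 98.3 ± 18.4 in nerve and 64.0 ± 15.2 in ganglion. Calca and Prph were highest in ganglion, at 52.8 ± 14.8 and 103 ± 28, against 4.77 ± 0.229 and 9.81 ± 1.28 in cord.

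Genes of sensory ganglia were measured because dorsal roots could enter the cord sample. Of 5 tested, 2 were called higher in cord, Prph and the receptor Ret (-1.38, SE 0.14), and 0 in brain. P2rx3, an ATP receptor of nociceptors, gave -0.41 (adjusted p = 0.182). Scn10a, the sodium channel of nociceptors, was not tested and averaged 9.87 ± 8.06 in cord and 3.91 ± 4.23 in brain. On the array median scale it was at 13.4 ± 1.06 in ganglion, 0.364 ± 0.285 in cord and 0.181 ± 0.192 in brain. Scn11a, a second nociceptor sodium channel, was not tested and read 17.4, 31.4, 2.40, 9.49 and 22.2 in cord, with a brain mean of 8.21 ± 3.61. Avil, advillin, an actin-binding protein of sensory neurons, was not tested and read 3.02, 33.6, 1.89, 8.07 and 31.1 in cord, with a brain mean of 3.46 ± 2.01. Both were highest in the 2 cord pools given GPN. Calcb, which encodes beta-CGRP, was not tested and averaged 45.2 ± 16.5 in cord and 4.2 ± 1.9 in brain. Dorsal root or ganglion material in the cord pools and its part in these results were not tested. Trpv1, the capsaicin receptor, averaged 15.5 ± 4.61 in cord and 10.2 ± 4.37 in brain. Calca was at 52.8 ± 14.8 in ganglion, 4.77 ± 0.229 in cord and 0.251 ± 0.206 in nerve, and Nefh at 151 ± 38.8, 56.6 ± 3.47 and 0.0936 ± 0.0731.

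Hox genes were higher in cord in every case tested. Of 39 listed, 15 were on the arrays with a single symbol, 10 passed the filter, and 10 of 10 were called higher in cord, with a median of -1.95. All 10 could pass the filter through the cord pools alone. Hoxd9 read 19.1, 21.9, 19.5, 23.4 and 14.5 in brain and 189, 164, 205, 205 and 202 in cord, a difference of -2.91 (SE 0.11, adjusted p = 1.41e-07). Hoxc8 differed by -2.83 (SE 0.22), Hoxd8 by -2.62 (SE 0.23), Hoxa5 by -2.28 (SE 0.16), Hoxd10 by -1.63 (SE 0.21), Hoxb2 by -1.52 (SE 0.20), Hoxc5 by -1.36 (SE 0.21), Hoxc4 by -1.04 (SE 0.20) and Hoxc9 by -0.96 (SE 0.10). The genes called run from Hoxb2, Hoxc4 and Hoxc5, which act nearer the head, to Hoxc9, Hoxd9 and Hoxd10, which act nearer the tail. The 5 that did not pass were Hoxa11 (4.48 in brain, 20.8 in cord), Hoxb7 (5.23 and 12.7), Hoxd3 (2.51 and 7.05), Hoxd4 (3.14 and 2.84) and Hoxb1 (6.28 and 2.22).

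Transcription factors of the forebrain showed the opposite. Of 10 tested, 7 were called higher in brain and 0 in cord, with a median of 1.18. Lhx2, a factor of cortical progenitors and neurons, read 58.9, 61.4, 60.8, 57.7 and 53.4 in brain and 1.49, 8.10, 2.49, 6.52 and 10.4 in cord, a difference of 2.50 (SE 0.20, adjusted p = 1.17e-05). Mef2c, which acts in cortical neurons, read 22.7, 156, 38.3, 62.5 and 177 in brain and 11.5 to 21.6 in cord. Its difference was 1.70 (SE 0.28, adjusted p = 0.00112), with the naive GPN and SNL GPN brain pools the highest. Neurod2 differed by 1.36 and Lmo4 by 1.33. Tbr1, of deep cortical layers, gave 0.25 (adjusted p = 0.154) and Dlx5, of inhibitory neuron precursors, 0.33 (adjusted p = 0.237).

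Regional neuron genes of the brain were called in most cases. Of 16 cortex and hippocampus genes tested, 15 were higher in brain and 1 in cord, with a median of 1.23. Besides Nrgn, Itpka and Crym, Cnr1, the cannabinoid receptor, differed by 1.94 (SE 0.12), Cck, a peptide of cortical neurons, by 1.92 (SE 0.08) and the calcium sensor Hpca by 1.58. Camk2a, a kinase of excitatory synapses, differed by 0.29 (adjusted p = 0.0205), a call lost without the naive GPN pair (adjusted p = 0.0816) and without the SNL pair (adjusted p = 0.0668). Lamp5, a marker of a class of cortical interneurons, was the member higher in cord, by -0.51 (SE 0.08, adjusted p = 0.00115), at 342 ± 31.9 against 491 ± 45.2.

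Striatal genes were higher in brain for 15 of 16 tested and in cord for 0, with a median of 0.92. Rgs9, which shortens dopamine and opioid receptor signals, read 66.6, 56.5, 56.8, 53.5 and 48.8 in brain and 5.65, 5.56, 4.25, 7.16 and 6.41 in cord, a difference of 2.39 (SE 0.15, adjusted p = 2.2e-06). Rasd2 differed by 1.96 (SE 0.11), Rgs4 by 1.94 (SE 0.10), Drd1, the D1 dopamine receptor, by 1.76 (SE 0.18) and Ppp1r1b, the phosphatase inhibitor DARPP-32, by 1.46 (SE 0.07). Adora2a, the adenosine receptor of the indirect pathway, differed by 0.52 (SE 0.10). Drd2, its D2 receptor, was not tested, at 18.5 ± 13.7 and 8.75 ± 4.41.

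Cerebellar genes had the highest median of the lists, 1.96, and 11 of 12 tested were called higher in brain and 0 in cord. Calb1, a calcium buffer of Purkinje cells, averaged 395 ± 34.8 in brain and 63.6 ± 9.86 in cord, a difference of 2.53 (SE 0.11). Slc1a6, the glutamate transporter of Purkinje cells, read 54.2, 29.7, 47.4, 38.6 and 19.0 in brain and 2.04 to 2.81 in cord, a difference of 2.29 (SE 0.22, adjusted p = 4.08e-05). Cbln1, a granule cell protein that holds their synapses, differed by 2.13 (SE 0.07) and Pvalb, parvalbumin, by 1.79 (SE 0.08). Calb2, calretinin, gave 0.08 (adjusted p = 0.472).

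Of 8 hypothalamic peptide genes tested, 4 were higher in brain and 0 in cord, with a median of 0.88. Pmch, of melanin-concentrating hormone neurons, read 93.1, 58.5, 65.7, 75.9 and 58.5 in brain and 7.92, 7.29, 3.93, 0.88 and 7.00 in cord, a difference of 2.76 (SE 0.20). Oxt, oxytocin, differed by 2.67 (SE 0.12), Avp, vasopressin, by 1.51 (SE 0.17) and Hcrt, orexin, by 0.69 (adjusted p = 0.00199). Without the naive pair, whose brain pool held pituitary signals, Oxt differed by 2.70 and Avp by 1.57. Of 15 other neuropeptide genes, 6 were higher in brain and 3 in cord. Vip differed by 1.92 (SE 0.15), Penk, proenkephalin, by 0.51 (SE 0.09) and Npy by 0.40 (SE 0.12). Pdyn, prodynorphin, differed by -0.37 (adjusted p = 0.00734) by its brightest probe set and by 0.19 (adjusted p = 0.347) over the mean of its probe sets. Tac1, the precursor of substance P, gave 0.05 (adjusted p = 0.722) and Sst, somatostatin, 0.18 (adjusted p = 0.0946). Ttr led the list of choroid plexus and ependyma genes, in which 3 of 7 were called higher in brain and 0 in cord. The other 2 were the sulfate transporter Slc13a4 (0.72, SE 0.11) and the growth factor Igf2 (0.41, SE 0.07), with 1 of 3 probe sets called for Igf2. The 4 members not called differed by 0.01 to 0.25, with adjusted p values of 0.213 to 0.966.

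Synaptic genes were higher in brain. Of 23 synaptic vesicle genes tested, 17 were called higher in brain and 1 in cord, with a median of 0.88. Stx1a, a membrane fusion protein of nerve terminals, averaged 375 ± 36.7 in brain and 76.8 ± 14.5 in cord, a difference of 2.21 (SE 0.09). Syt1, the calcium sensor of fast release, read 31.9, 71.6, 73.6, 58.2 and 76.7 in brain and 5.01 to 12.9 in cord, a difference of 2.14 (SE 0.23). Sv2b differed by 1.96 (SE 0.09) and Cplx2, a complexin, by 1.87 (SE 0.08). The vesicle proteins Vamp1 and Vamp2 took opposite sides. Vamp2 averaged 959 ± 84.2 in brain and 374 ± 31.4 in cord, a difference of 1.34 (SE 0.06, adjusted p = 4.03e-07), with 4 of 4 probe sets called for brain. Vamp1 averaged 508 ± 25.4 and 1225 ± 119, a difference of -1.26 (SE 0.06, adjusted p = 5.06e-07), with 5 of 5 probe sets called for cord. Cplx1 gave -0.09 (adjusted p = 0.369) beside the brain-higher Cplx2.

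Of 23 postsynaptic density genes, 19 were higher in brain and 1 in cord, with a median of 1.14. Nptxr, a pentraxin receptor that gathers AMPA receptors, averaged 405 ± 18.4 in brain and 46.6 ± 4.16 in cord, a difference of 2.94 (SE 0.08, adjusted p = 1.59e-08). Baiap2 differed by 1.96 (SE 0.11), and the scaffolds Dlg3, Dlgap1 and Shank3 by 1.74, 1.73 and 1.64. Homer1 differed by 1.48 (SE 0.09), with 6 of 6 probe sets called. Dlg4, PSD-95, gave 0.39 (adjusted p = 0.0859). Camk2g was the member higher in cord, by -0.45 (SE 0.09).

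Genes shared by most neurons differed less. Of 21 pan-neuronal genes, 15 were higher in brain and 2 in cord, with a median of 0.41. Celf4, an RNA-binding protein, differed by 1.41 (SE 0.07), Gap43, of growing and plastic axons, by 1.27 (SE 0.08), Dnm1, the dynamin of synaptic vesicle recycling, by 1.19 (SE 0.07) and Rbfox3, the antigen NeuN, by 1.07 (SE 0.06). Snap25 differed by 0.46 (SE 0.06) and Mapt, tau, by 0.36. Tubb3, neuronal tubulin, and Uchl1, a neuronal ubiquitin hydrolase, were higher in cord, by -0.65 (SE 0.07) and -0.28 (SE 0.08). For Uchl1, 1 of 5 probe sets was called, and its brain and cord pools overlapped.

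Several GABA receptor subunits were higher in brain, and 1 glycine receptor subunit was higher in cord. GABA is the main inhibitory transmitter of the brain, and glycine shares that role in the cord. Of 16 GABA genes tested, 9 were higher in brain and 0 in cord, with a median of 0.44. Gabrb2 averaged 511 ± 50.6 in brain and 60.2 ± 9.18 in cord, a difference of 2.97 (SE 0.07). Gabrd, a subunit of receptors outside the synapse, read 221, 196, 196, 217 and 203 in brain and 44.2, 46.1, 48.0, 6.97 and 64.3 in cord, a difference of 2.34 (SE 0.30), with the SNL cord pool far below the other 4. Gabra4 differed by 1.86 (SE 0.22) and Gad1, which makes GABA, by 1.34 (SE 0.07). Gabra2 and Gabra3 gave 0.13 (adjusted p = 0.333) and 0.24 (adjusted p = 0.61). Of 6 glycine genes, 2 were higher in cord, 0 in brain and 4 were not called, with a median of 0.03. Glra1, the adult glycine receptor subunit, read 17.7, 10.8, 22.3, 23.7 and 19.2 in brain and 63.7, 82.9, 55.6, 63.5 and 66.3 in cord, a difference of -1.56 (SE 0.18, adjusted p = 0.000115). Slc6a9, the glial glycine transporter, differed by -1.53 (SE 0.07). Slc6a5, the neuronal glycine transporter, was at 26.8 ± 8.63 and 28.4 ± 13.1, a difference of -0.03 (SE 0.21, adjusted p = 0.937). Slc32a1, the vesicular carrier of both transmitters, gave 0.24 (adjusted p = 0.109).

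Of 22 glutamate receptor and transporter genes, 15 were higher in brain and 2 in cord, with a median of 0.66. The AMPA receptor subunits Gria1 and Gria2 averaged 130 ± 21.4 and 147 ± 16.2 in brain and 31.5 ± 4.68 and 44.6 ± 8.92 in cord. Their differences were 1.85 (SE 0.12) and 1.61 (SE 0.12), with 3 of 3 probe sets called for each. Gria3 and Gria4 differed by 0.70 and 0.66. Grm2, a presynaptic metabotropic receptor, differed by 1.59, and Grin2c, an NMDA receptor subunit of cerebellar granule cells, by 0.98. Slc17a6, the vesicular glutamate transporter of brainstem and cord neurons, was higher in cord, at 249 ± 22.8 against 141 ± 25, a difference of -0.81 (SE 0.09). Slc17a7, the cortical transporter, was near background in both tissues (2.43 in brain and 2.81 in cord) and was not tested. Whether its probe set detects the transcript is not known here, so these signals do not show that brain lacks it. The kainate receptor subunit Grik4 differed by -0.86 (SE 0.11).

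Of 17 sodium and calcium channel genes, 11 were higher in brain and 1 in cord, with a median of 0.51. Scn2a, of unmyelinated axons, averaged 244 ± 26.6 in brain and 53.0 ± 4.25 in cord, a difference of 2.08 (SE 0.07), and Scn3b 276 ± 18.9 and 67.5 ± 6.89, a difference of 1.95 (SE 0.09). Scn4b, an accessory subunit of fast-firing neurons, was higher in cord, by -0.86 (SE 0.07). Scn1a gave -0.24 (adjusted p = 0.0912), and Scn8a, of the nodes of myelinated axons, differed by 0.51 (adjusted p = 0.0315). Cacna2d1, the subunit to which gabapentin binds, read 123, 78.0, 91.0, 72.6 and 74.4 in brain and 36.0, 37.9, 41.5, 32.2 and 45.4 in cord, a difference of 1.05 (SE 0.13, adjusted p = 0.000222). The brain and cord pools of Cacna2d1 did not overlap, and the naive brain pool was the highest.

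Potassium and HCN channel genes were called higher in brain for 15 of 30 tested and in cord for 4, with a median of 0.41. Kcnj4, an inward rectifier of forebrain neurons, differed by 2.11 (SE 0.16), Kcnf1 by 1.65 and Kcnh1 by 1.52 (SE 0.15). Those higher in cord were Kcnd1 (-0.82), Kcnj16 (-0.71), Kcna1, a channel beside the nodes of myelinated axons (-0.50, adjusted p = 0.0331), and Kcnh2 (-0.33). Neuronal calcium-binding proteins were higher in brain for 11 of 13 and in cord for 0, with a median of 0.83, led after Nrgn by Hpcal4 (2.64, SE 0.17) and Calb1. Of 13 immediate-early genes, 7 were higher in brain and 1 in cord. Egr1, induced by synaptic activity, read 950, 638, 496, 600 and 721 in brain and 249, 194, 178, 226 and 174 in cord, a difference of 1.69 (SE 0.10), and Fos gave 0.12 (adjusted p = 0.439). Of 19 monoamine genes, 3 were higher in brain and 1 in cord. Th, the first enzyme of catecholamine synthesis, differed by 0.94 (SE 0.12), and Maoa, which degrades monoamines, by -0.77 (SE 0.08).

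Glia other than oligodendrocytes were also higher in cord in most cases. Of 21 astrocyte genes, 15 were called higher in cord and 2 in brain, with a median of -0.38. Vim, vimentin, averaged 141 ± 30.8 in brain and 490 ± 55.8 in cord, a difference of -1.76 (SE 0.11), and Aqp4, the water channel of astrocyte endfeet, 551 ± 36.5 and 1122 ± 156, a difference of -1.01 (SE 0.09). Vim was also high in sciatic nerve, at 172 ± 51.3 times the array median against 18.1 ± 1.20 in cord. Slc1a3, the glutamate transporter GLAST, was strongly higher in brain, reading 586, 737, 626, 572 and 882 against 164, 126, 204, 180 and 144. Its difference was 2.02 (SE 0.15, adjusted p = 7.01e-06), with 4 of 4 probe sets called. Slc1a2, the other glial glutamate transporter, gave 0.19 (adjusted p = 0.314) at weak signals, 35.6 ± 9.19 in brain and 30.5 ± 8.31 in cord. Sparc was called higher in brain by its brightest probe set, by 0.30 (adjusted p = 0.0111), but 6 of its 7 probe sets were called for cord and their mean difference was -0.65.

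Of 16 microglia and macrophage genes, 12 were higher in cord and 0 in brain, with a median of -0.74. Laptm5, a lysosomal protein of leukocytes, differed by -1.83 (SE 0.19) and RT1-Da, an MHC class II chain, by -1.58 (SE 0.13). Aif1 and Csf1r, markers of resident microglia, differed by -0.81 (SE 0.10) and -0.79 (SE 0.10), and Cx3cr1, the fractalkine receptor, gave -0.18 (adjusted p = 0.409). Complement, the cascade of serum and tissue proteins that tags debris and synapses for removal, is the subject of the study's title. Of 19 complement genes tested, 9 were higher in cord and 0 in brain, with a median of -0.33. C3, its central component, read 26.4, 7.04, 16.1, 8.31 and 25.5 in brain and 87, 66.8, 85.9, 60.2 and 86.4 in cord, a difference of -1.96 (SE 0.16, adjusted p = 1.21e-05). The protease genes C1s and C1r differed by -1.60 (SE 0.19) and -1.07 (SE 0.13), and their inhibitor Serping1 by -1.12 (SE 0.17). C1qb and C1qa, 2 chains of C1q, differed by -1.22 (SE 0.22) and -0.78 (SE 0.09), and C1qc gave -0.08 (adjusted p = 0.479), with 1 of its 2 probe sets called for cord.

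Vessel and blood genes leaned toward cord. Of 9 vessel genes, 7 were called higher in cord and 0 in brain, with a median of -0.82, among them the tight junction gene Cldn5 (-0.91, SE 0.10). Of 5 red blood cell genes, 4 were called higher in cord and 0 in brain. Hbb differed by -0.96 (SE 0.19, adjusted p = 0.00365) with all pairs and by -1.21 (adjusted p = 0.000209) without the naive pair. Alas2, which starts haem synthesis in red cells, differed by -0.85 with all pairs and by -1.04 without the naive pair. Hba-a1 was the brightest probe set on all 5 cord arrays of set B, so its cord value is fixed at 5138 and its difference of -0.98 is set by brain alone. The amount of blood left in each tissue was not measured, and its part in the result was not tested.

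Lists with no clear lean were also found. Of 26 respiratory chain genes, 5 were higher in brain and 0 in cord, with a median of -0.01, and the largest was Cox8a at 0.41 (SE 0.06). Of 7 skeletal muscle genes, 1 was higher in brain (Acta1, 0.81, SE 0.13) and 1 in cord (Tnnc2, -0.62, adjusted p = 0.0124), while Ckm, muscle creatine kinase, was not tested, at 15.7 in brain and 22.9 in cord. Of 2 pituitary genes tested, Cga gave 0.43 (adjusted p = 0.145) and Lhb 0.25 (adjusted p = 0.168).

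**Figure D5:**
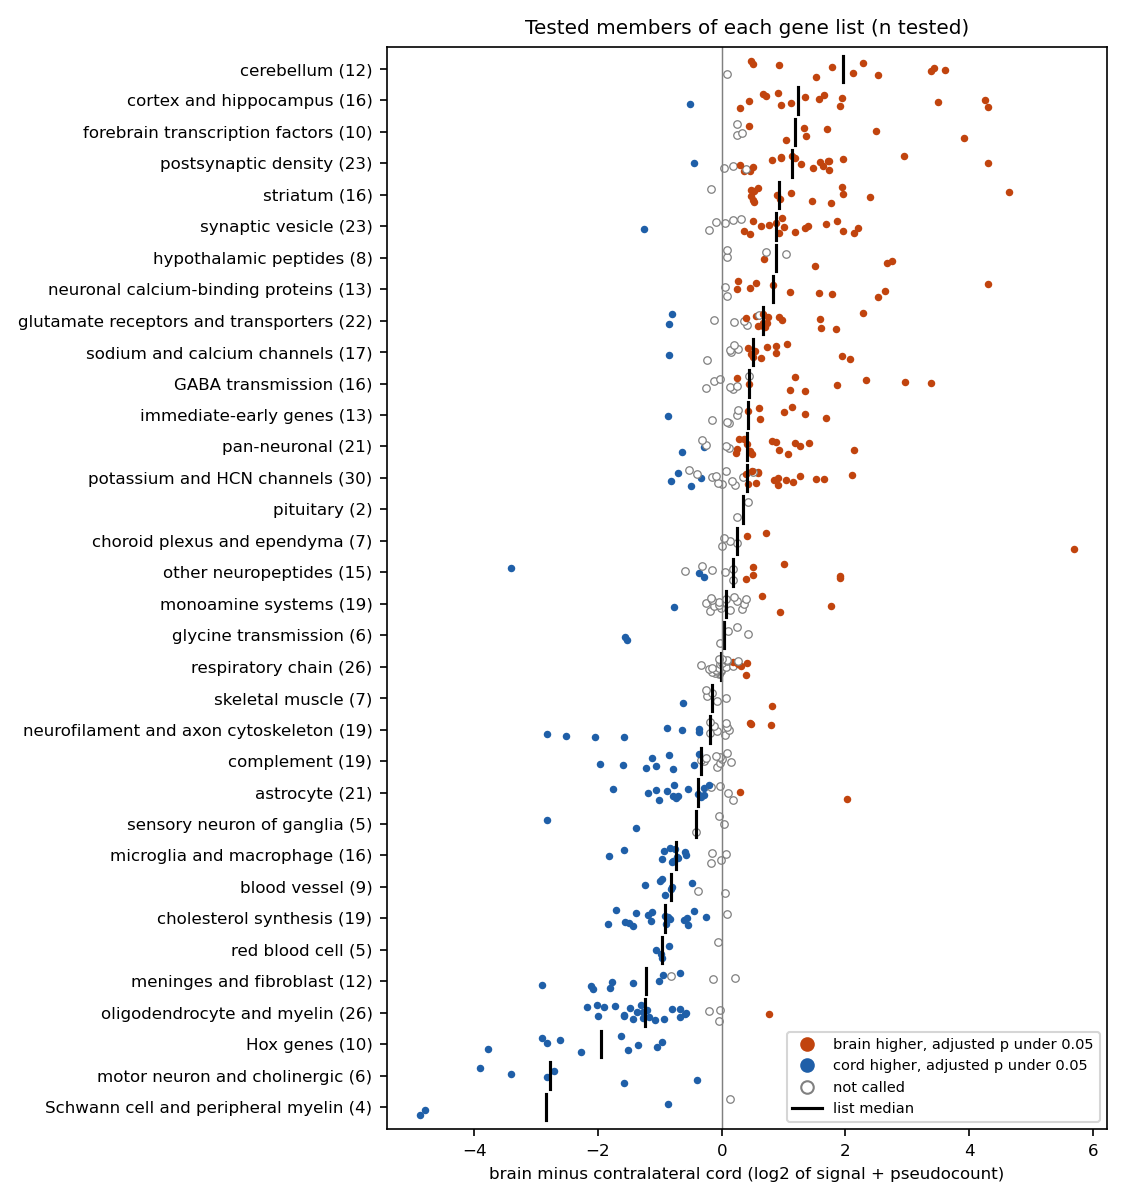
Difference of brain minus contralateral cord (log2 scale) for each tested member of the 34 gene lists, ordered by list median (black bar); filled points have an adjusted p under 0.05 and open points do not. Medians run from -2.84 in the Schwann cell list to 1.96 in the cerebellum list, against -0.01 over all 8280 genes.

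The difference between tissues was tested for its dependence on ligation and on gabapentin, in a fit with both terms to the 5 pairs. With limma, 0 of 16078 probe sets (0%) were called for ligation, where 729 had an unadjusted p under 0.05 (4.53%) and the lowest adjusted p was 0.92. For gabapentin 0 (0%) were called, where 815 had an unadjusted p under 0.05 (5.07%) and the lowest adjusted p was 0.301. With the deposited scaling kept, 299 and 18 probe sets were called. These fits leave 2 residual degrees of freedom, so a missing call does not show that the tissues responded alike.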

How the data were processed

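Total RNA extracted with Trizol from pooled rat tissue was labelled and hybridised to Affymetrix rat U34 A, B and C arrays, per the labels' protocols. The deposited values are linear MAS5 intensity per probe set, made by the authors per the submitters' processing notes. No version, target of scaling or detection call of MAS5 was given in the sources used here. Of each treatment and tissue the first of 2 pools was arrayed.

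The arrays hold 26379 probe sets: 177 controls, 18178 with 1 gene symbol, 391 with several and 7633 with none. Symbols were updated for 18122 probe sets through Entrez identifiers with a RefSeq gene table of GRCr8, used for names only. The 10 arrays of each set were quantile normalized, and log2 values were computed here, after adding the 20th percentile of each set as pseudocount, from the deposited intensity. Probe sets above the 40th percentile of the array in at least 5 of 10 pools were kept. The 5 within-treatment differences were fitted with limma 3.58.1 in R 4.3.3 (lmFit, eBayes with trend, two-sided), with Benjamini-Hochberg adjustment and a threshold of 0.05.

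The treatment is the replicate number and the block of the fit. Deviations from the tissue means of same-treatment pools correlated at 0.23 for naive, 0.12 for naive with GPN, 0.03 for sham and for SNL, and 0.00 for SNL with GPN. The pairing comes from the treatment named in the titles, not from known shared animals.

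Named genes are the 10 largest differences in each direction with all 5 pairs of the same sign, up to 4 called members per direction of each of 34 gene lists, the cell type markers, and other tested list members where their list is described. Untested members are given as values only. The comparison, its members and the lists were chosen with earlier results of these data known. The alternatives were deposited and median scaling, other pseudocounts and filters, no block, no trend, ipsilateral cord, the mean of all probe sets, and leaving out each pair.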

Additional observations from a re-analysis of the deposited data

Results flagged for a closer look

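Among 410 sets of 5 pools (206 named genes in each tissue, less those without spread), 27 held 1 pool whose distance to the next was over 0.71 of the whole range on the log2 scale. Chance marks about 1 in 20 such sets, and the genes are not independent.

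The naive brain pool accounted for 11 of the 27. Pituitary genes were high there, with Gh1 at 1917 (9.38 to 26.7 in the other 4 brain pools), Prl at 829 (1.98 to 13.2) and Cga at 149 (53.2 to 64.6). The haemoglobin gene Hbb stood at 4254 (1203 to 1668). The same pool was highest for Laptm5 at 37.9 (12.6 to 14.2), Vim at 195 (121 to 139), Col1a1 at 241 (172 to 185), Cck at 567 (473 to 498) and Hoxa5 at 5.78 (2.84 to 3.50). It was lowest for Pdyn at 252 (321 to 337) and for Mbp on array C at 4871, where the others are fixed at 5622.

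In the remaining brain pools, Sncg was low at 11.6 and Hoxc5 high at 7.84 in naive with GPN, Scn10a was high at 11.5 in sham, Gad1 was low at 357 in SNL and Grm2 low at 28.6 in SNL with GPN. Among cord pools, 5 of the 11 single values fell in SNL, whose set A array was the dimmest: Gabrd at 6.97 (44.2 to 64.3 elsewhere), Gabra3 at 5.24 (19.6 to 28.9), Calca at 82.4 (128 to 139), C1qb at 115 (149 to 166) and Hoxc4, high on array B, at 29.7 (23.1 to 24.8). The naive cord pool was low for Vip at 5.25 and Hoxb7 at 9.23 and high for Mog at 704. Hpcal4 was low in naive with GPN at 42.9, and Gabrb2 and Sfrp5 were low in sham at 44.5 and 149.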

How the results depend on the processing

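The count of 5416 probe sets fell to 2699 (1375 brain, 1324 cord) with the deposited scaling kept and to 2466 (1279 brain, 1187 cord) with the ipsilateral cord of 3 treatments, a comparison with fewer pairs. The deposited scaling also gave 299 calls for ligation and 18 for gabapentin, where quantile normalization gave 0 each. The cause was not tested. Without the replicate block 5234 probe sets were called (2521 brain, 2713 cord), and leaving out 1 pair gave 4494 to 4760. The other alternatives gave 4650 to 5458, and the 60th percentile filter tested 10824 probe sets. Among genes called in the main results or under the alternative, the signs of 6 changed. Of those called in the main results, Cox6a1 was at 0.00 under median scaling. Over the mean of all probe sets Sparc was at -0.65 and Pdyn at 0.19. The other 3 were called only over that mean: Cd14 at -0.29, Sptbn1 at -0.33 and Syngr1 at -0.47. Among the 319 called genes, the deposited scaling ended 69 calls and the ipsilateral cord 93, and leaving out 1 pair ended 18 to 24. Files without detection calls set no limit of detection per probe set, and signals near the pseudocount carry no firm ratio.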
